A study of Mus musculus with 8 samples.

Results

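The genes described here are 10 genes of autophagy and the lysosome, Tfeb, Ulk1, Becn1, Atg5, Atg7, Map1lc3a, Gabarapl1, Sqstm1, Lamp2 and Ctsl. They were found on the array as every non-control probe whose RefSeq accession maps to one of these symbols, which gave 12 probes of the 55681 non-control probes, 2 each for Atg7 and Lamp2 and 1 for each other gene. The probes were taken by gene name and by no measured value, though the list of genes was set with earlier results of these data known. All 12 probes lay well above background on all 8 arrays, so none was lost to the filter on dim probes.

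RNA came from 8 male C57BL/6 mice and from 1 muscle, the EDL (extensor digitorum longus), which lies in the lower hindlimb and is made mostly of fast fibres. The PCKO group was 4 mice with an inducible knockout, specific to skeletal muscle, of p300 and CBP, the paired acetyltransferases and transcriptional coactivators encoded by Ep300 and Crebbp. The WT group was 4 mice with the genotype wildtype. Per the labels the mice were 13 to 15 weeks old when a 5-day course of oral tamoxifen began, and they were fasted for 4 h and killed 1 day after the course ended. The treatment text names the PCKO mice and stands with all 8 samples, the genotype field of the PCKO mice names CBP alone, and the sources used here do not name the promoter that drives the recombinase. One-colour arrays were used, 1 for each mouse. The labels do not say whether the WT mice carried the recombinase or the alleles it acts on, or whether they received tamoxifen. Any effect of these cannot be told apart here from that of losing the coactivators. The comparison asks which transcripts of the pathway differ between PCKO and WT muscle within days of the induced knockout.

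Macroautophagy wraps cytoplasm in a double membrane and delivers it to the lysosome. The kinase complex around ULK1 starts the process, the lipid kinase complex around Beclin 1 marks the membrane, and a ubiquitin-like conjugation system attaches proteins of the LC3 and GABARAP families to it. Receptors such as p62 tie cargo to those proteins, and after fusion the acid hydrolases of the lysosome digest it. TFEB and its relatives TFE3 and MITF are transcription factors that bind genes of lysosomal proteins and of autophagy. In skeletal muscle the pathway is known to rise on fasting and in several forms of atrophy, and its loss in mice harms muscle fibres.

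Levels are log2 of the spot intensity minus the 75th percentile of the array, so a level has meaning only against the same probe on other arrays. Differences are PCKO minus WT, each with its standard error from limma and n = 4 in each group, and a gene is called when its adjusted p is under 0.05. Each array had 24207 to 25673 probes well above background and none saturated. Over the 24872 tested probes 65.1% were called, 33.8% higher and 31.3% lower in PCKO. Against labelled control transcripts spiked into each sample, the 75th percentile itself was 0.68 log2 units higher in PCKO (-2.80 ± 0.34 in PCKO and -3.48 ± 0.30 in WT, SD, n = 4 each). A two-sided exact permutation test gave p = 0.0286, which is the lowest that 4 mice against 4 allow. Without any of 5 of the 8 mice (PCKO replicate 4 or each WT mouse in turn) that p was 0.0571. Centring on the spike-ins therefore adds 0.68 to each difference of a probe with a value on all 8 arrays, and the differences are relative to the other genes of the array.

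Tfeb fell and so did Map1lc3a and Sqstm1, while Atg7, Lamp2 and Ctsl rose. Ulk1, Becn1, Atg5 and Gabarapl1 did not pass. In all, 3 of the 10 genes were called higher and 3 lower, against 69.4% called among the 12739 named genes tested, 37.5% higher and 31.9% lower, so the share of called members lay near that of all genes. The PCKO and WT values did not overlap in 6 of the 10 genes, against 65.8% of named genes, and in 8 of their 12 probes, against 60.1% of tested probes. Of the called genes only Tfeb and Atg7 differed by 2-fold or more.

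**Figure D1:**
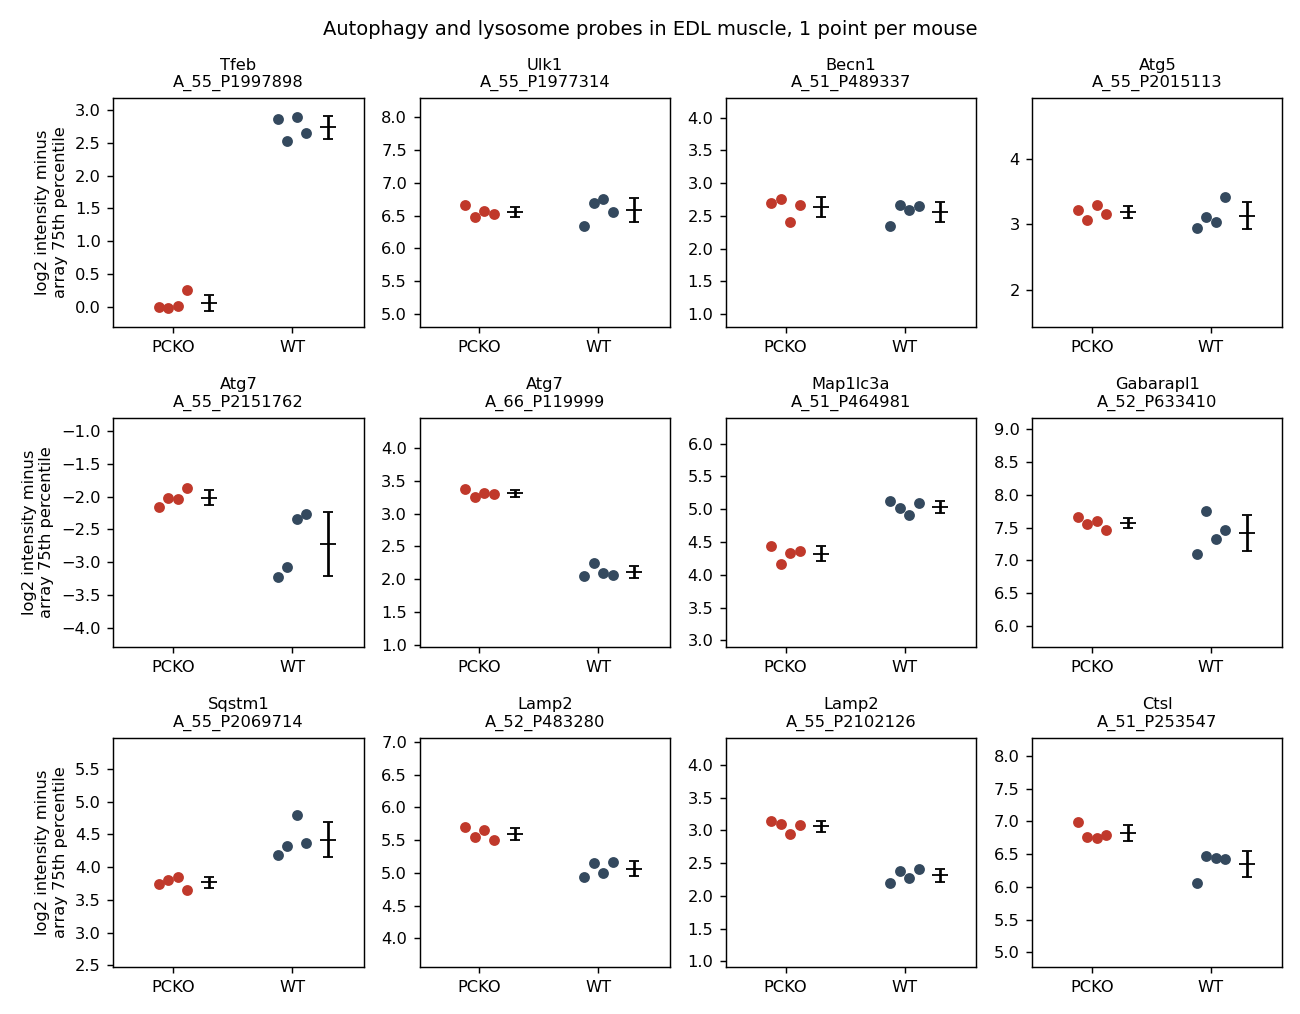
Level (log2 intensity minus the array's 75th percentile) of each of the 12 probes in 4 PCKO mice (left, red points) and 4 WT mice (right, dark points), with the mean and SD of each group beside the points and the same span of the vertical axis in every panel. The groups are far apart for Tfeb (means 0.06 in PCKO and 2.73 in WT) and overlap for Ulk1, Becn1, Atg5 and Gabarapl1.

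The transcription factor at the head of the pathway gave the widest difference of the 10 genes. Tfeb had levels of -0.01, -0.02, 0.01 and 0.25 in the PCKO mice, against 2.87, 2.52, 2.89 and 2.65 in the WT mice. Every PCKO value lay more than 2 log2 units below every WT value. The difference was -2.68 ± 0.11 (limma, adjusted p = 2.93e-07), or 6.40-fold lower. It kept its call and its sign in all 24 other settings that hold the probe, between -2.75 and -2.0. The single Tfeb probe is annotated to transcript NM_001161722, and RefSeq lists several transcripts and start sites for the gene, so other Tfeb transcripts were not measured separately. The 3 genes whose pattern over the 8 arrays lay closest to that of Tfeb, by the root mean square distance of centred levels among 12699 named genes, were Speg (0.114), Cmya5 (0.128) and Stac3 (0.128). All are known as striated muscle genes, a kinase of the triad, a costamere protein and a protein of excitation-contraction coupling, and they differed by -2.63 ± 0.07, -2.67 ± 0.11 and -2.59 ± 0.07.

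Of the relatives of Tfeb 1 passed the test. Mitf rose by 0.44 ± 0.09 (adjusted p = 0.00319). For Tfe3 the difference of 0.20 ± 0.09 did not pass (adjusted p = 0.0853), with a 95% interval of -0.01 to 0.40. Among 7 tested transcription regulators of the pathway 2 were higher and 3 lower (28.6% and 42.9%, against 37.5% and 31.9% of named genes). Among the 6 well above background on all 8 arrays, tested with that filter, 3 were higher and 2 lower. With that filter 4495 of 11596 named genes were higher and 3746 lower. Bhlhe40, a repressor that binds E-box DNA, had levels of 0.94, 0.78, 0.58 and 0.59 in PCKO, against 3.44, 3.81, 3.63 and 3.50 in WT, and differed by -2.87 ± 0.12 (adjusted p = 2.58e-07). Foxo1, a forkhead factor known to drive atrophy and autophagy genes in muscle, differed by -1.97 ± 0.18 (adjusted p = 2.51e-05). The third lower gene, Nr1h4, the bile acid receptor, was well above background in no PCKO mouse and in 4 WT mice, so it passed the filter on dim probes through WT alone, and its level is given as at least 2.24-fold lower, as a description. The median of the list was 0.20 and turned to -0.08 with the normexp background correction. Foxo3 was not well above background on any array.

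TFEB and its relatives bind the letters CACGTG, the E-box, and most strongly within the longer CLEAR element, whose palindromic form searched here is that E-box with GT before it and AC after it. Both read the same on either strand, and every CLEAR match holds an E-box match. They were searched for in RefSeq promoter windows (GRCm38.p6, from 250 bases before to 50 bases after a start site), which the table holds for 8 of the 10 genes in 10 windows. An E-box stood in 3 of the 10 windows, those of Atg7, Ctsl and Atg5, beginning at offsets of -132, -236 and -14 bases from the start site, against 7.15% of all 32851 windows. No window of the 10 genes held the CLEAR letters, and neither did the 3 windows of Tfeb itself hold an E-box. Of 170 windows of the other pathway genes described below, 36 held an E-box (21.2%) and 4 held the CLEAR letters (2.35%, against 0.326% of all windows). The 4 belong to Vps33a (1.07 ± 0.08), Vps16 (0.65 ± 0.09) and Cln3 (1.41 ± 0.10), which rose, and to Igf2r (0.06 ± 0.08, adjusted p = 0.554), which did not pass. Vps33a, Vps16 and Igf2r were named after their windows were searched, while Cln3 was also named by the size of its difference. The windows are shown for the 3 chosen genes with an E-box, as the chosen promoters that hold the letters TFEB is known to bind, and for 2 risers with the CLEAR letters, with the matches in capitals. A match describes the letters only, and binding was not measured.
Atg7, chr6:114670846-114671145, strand plus: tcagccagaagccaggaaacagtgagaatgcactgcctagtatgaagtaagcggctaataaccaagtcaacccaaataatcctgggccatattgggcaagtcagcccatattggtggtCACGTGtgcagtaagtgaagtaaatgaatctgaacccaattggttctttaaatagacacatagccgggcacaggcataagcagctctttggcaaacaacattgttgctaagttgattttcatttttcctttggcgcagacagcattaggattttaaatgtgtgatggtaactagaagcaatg
Ctsl, chr13:64370471-64370770, strand minus: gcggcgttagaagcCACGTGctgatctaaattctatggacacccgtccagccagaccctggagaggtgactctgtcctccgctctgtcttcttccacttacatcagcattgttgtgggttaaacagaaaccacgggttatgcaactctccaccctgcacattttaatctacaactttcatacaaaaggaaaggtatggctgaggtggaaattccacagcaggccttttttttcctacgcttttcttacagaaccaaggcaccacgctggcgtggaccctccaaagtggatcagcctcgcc
Atg5, chr10:44268089-44268388, strand plus: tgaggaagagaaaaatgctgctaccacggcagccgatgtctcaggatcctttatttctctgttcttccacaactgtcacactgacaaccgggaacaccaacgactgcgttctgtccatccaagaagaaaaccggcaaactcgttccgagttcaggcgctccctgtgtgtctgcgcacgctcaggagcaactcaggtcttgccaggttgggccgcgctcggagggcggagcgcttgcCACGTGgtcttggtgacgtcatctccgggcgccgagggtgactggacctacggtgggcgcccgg
Vps33a, chr5:123572966-123573265, strand minus: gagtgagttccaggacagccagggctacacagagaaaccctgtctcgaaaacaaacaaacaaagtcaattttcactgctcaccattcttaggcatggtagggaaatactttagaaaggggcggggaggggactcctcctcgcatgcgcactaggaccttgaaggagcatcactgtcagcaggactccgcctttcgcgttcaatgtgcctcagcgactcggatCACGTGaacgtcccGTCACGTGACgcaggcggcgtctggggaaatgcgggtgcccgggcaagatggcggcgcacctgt
Cln3, chr7:126583187-126583486, strand minus: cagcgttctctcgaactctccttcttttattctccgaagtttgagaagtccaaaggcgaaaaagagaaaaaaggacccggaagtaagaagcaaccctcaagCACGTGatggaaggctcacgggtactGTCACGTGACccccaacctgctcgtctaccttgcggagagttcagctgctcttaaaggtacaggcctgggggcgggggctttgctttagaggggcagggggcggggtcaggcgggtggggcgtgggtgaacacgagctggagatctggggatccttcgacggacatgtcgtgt

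At the initiation step neither chosen gene passed. Ulk1, the kinase that starts autophagy, had levels of 6.66, 6.48, 6.58 and 6.52 in PCKO, against 6.34, 6.69, 6.75 and 6.56 in WT. The groups overlapped and the difference was -0.03 ± 0.10 (adjusted p = 0.839, 95% interval -0.27 to 0.21). It was positive and passed under quantile normalization (0.33, adjusted p = 0.0143), and the deposited table gave 0.35 (adjusted p = 0.0228). Becn1, Beclin 1, had 2.70, 2.76, 2.41 and 2.67 in PCKO, against 2.34, 2.67, 2.58 and 2.65 in WT. Its values overlapped too, with a difference of 0.07 ± 0.11 (adjusted p = 0.584, 95% interval -0.18 to 0.33). Under the main scaling both intervals leave out a 2-fold change in either direction. With spike-in centring Becn1 was at 0.75 (adjusted p = 0.0265) and Ulk1 at 0.65.

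The partners of ULK1 were measured as well. Atg101, a small subunit of its complex, fell to 3.87, 3.71, 3.75 and 3.71 in PCKO, against 4.84, 4.86, 4.74 and 4.55 in WT (-0.99 ± 0.09, adjusted p = 3.05e-05), a call that was lost with spike-in centring (-0.31, adjusted p = 0.372). The scaffold genes Atg13 (0.14 ± 0.10) and Rb1cc1 (0.02 ± 0.08) and the second kinase gene Ulk2 (0.04 ± 0.08 at its brightest probe) did not pass. The dimmer Ulk2 probe was lower by its own test (-0.47 ± 0.10, adjusted p = 0.00332). Around Beclin 1, 3 of 10 genes were higher and 5 lower (30% and 50%, against 37.5% and 31.9% of named genes). Their median of -0.12 became positive under quantile normalization (0.04), spike-in centring (0.56) and the normexp correction (0.05). Vmp1, a membrane protein needed for autophagosome formation, differed by -0.79 ± 0.12 and Sh3glb1, a membrane-bending partner of Beclin 1, by -0.73 ± 0.14, both lost with spike-in centring (adjusted p = 0.759 and 0.88), and Sh3glb1 also in the deposited values (-0.28, adjusted p = 0.105), with -0.35 (adjusted p = 0.0364) under quantile normalization. The lipid kinase gene Pik3c3 (0.07 ± 0.09) and the targeting subunit Atg14 (0.06 ± 0.07) did not pass. Of the nutrient sensors on the lysosome, the mTORC1, Rag and sestrin list, 10 of 26 were higher and 7 lower. These shares, 38.5% and 26.9%, lay near the 37.5% and 31.9% of named genes (median 0.15, against 0.06 over all named genes). Rragb, a Rag GTPase, differed by 1.83 ± 0.14 and Sesn2, a stress-induced inhibitor of mTORC1, by 1.14 ± 0.10.

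In the conjugation system Atg7 rose and Atg5 did not pass. Atg7, the E1-like enzyme that activates both ubiquitin-like systems, had levels of 3.38, 3.26, 3.31 and 3.30 at its brightest probe in PCKO, against 2.04, 2.24, 2.10 and 2.06 in WT. Each group spanned less than 0.2 log2 units and the gap between them was about 1 unit. The difference was 1.20 ± 0.08 (adjusted p = 3.28e-06), or 2.30-fold, and it kept its call in all 23 other settings that hold this probe. The other probe, annotated to the same transcript NM_028835 and much dimmer, had -2.15, -2.02, -2.04 and -1.87 in PCKO, against -3.22, -3.08, -2.34 and -2.27 in WT (0.71 ± 0.22, adjusted p = 0.0211). The WT values of this dim probe split by slide row, replicates 1 and 2 being lower than 3 and 4, and its difference was -0.12 (adjusted p = 0.485) with the normexp correction, 0.35 (adjusted p = 0.0998) in slide row 2 alone and 0.24 (adjusted p = 0.0858) in the deposited values. The nearest patterns to the bright Atg7 probe were those of Asb1 (distance 0.0472), Neu1 (0.0528), the lysosomal sialidase, and Phkg2 (0.0539), a catalytic subunit of phosphorylase kinase, which differed by 1.14 ± 0.07, 1.26 ± 0.08 and 1.27 ± 0.08.

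Atg5, which joins ATG12 in the conjugate that helps lipidate LC3, had 3.22, 3.07, 3.29 and 3.16 in PCKO, against 2.94, 3.12, 3.04 and 3.42 in WT. The highest value of all was that of a WT mouse, and the difference was 0.06 ± 0.12 (adjusted p = 0.675, 95% interval -0.21 to 0.32). Of 9 other genes of the machinery 4 were higher (44.4%) and none lower, with a median of 0.19. Of named genes 37.5% were higher and 31.9% lower. Atg12 rose by 0.38 ± 0.07 (adjusted p = 0.00153), a call lost in the deposited values (0.31, adjusted p = 0.0643) and in each slide row alone (adjusted p = 0.0623 and 0.0979). Atg16l2 rose by 0.95 ± 0.15 (adjusted p = 0.000643). The E2-like Atg3 (0.12 ± 0.09) and the scaffold Atg16l1 (0.16 ± 0.10) did not pass. The membrane supply list of ATG9, ATG2 and WIPI proteins had 5 of 7 genes higher and 1 lower (71.4% and 14.3%, median 0.69). The lower one was Wipi1, a reader of the lipid mark, at -0.86 ± 0.10, lost with spike-in centring (-0.19, adjusted p = 0.599). Its relative Wdr45b rose by 0.78 ± 0.10, a call lost with the normexp correction (0.19, adjusted p = 0.19).

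Members of the LC3 and GABARAP families, the proteins that coat the autophagosome, differed from each other in direction. Map1lc3a had levels of 4.44, 4.17, 4.34 and 4.36 in PCKO, against 5.13, 5.02, 4.92 and 5.09 in WT. The groups did not overlap, and the difference of -0.71 ± 0.09 (adjusted p = 0.000162) made it 1.64-fold lower. With spike-in centring it was -0.04 (adjusted p = 0.921). Gabarapl1, a GABARAP protein and known FoxO target, had 7.65, 7.55, 7.60 and 7.46 in PCKO, against 7.10, 7.75, 7.33 and 7.46 in WT. Its WT mice spread over more than 0.6 log2 units around the PCKO values, and the difference was 0.16 ± 0.14 (adjusted p = 0.337, 95% interval -0.16 to 0.47), but 0.61 (adjusted p = 0.00303) under quantile normalization and 0.45 (adjusted p = 0.0354) with the normexp correction.

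Gabarap rose to 6.82, 6.58, 6.83 and 6.79 in PCKO, against 6.35, 6.13, 6.23 and 6.2 in WT (0.53 ± 0.09, adjusted p = 0.000971). Map1lc3b (0.16 ± 0.10) and Gabarapl2 (0.00 ± 0.09) did not pass. Under quantile normalization all 3 of these relatives were called higher, and likewise with spike-in centring. Of the 12739 named genes 5401 and 6773 were called higher in these settings, in the same order.

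Among cargo receptors, Sqstm1, which encodes p62, had levels of 3.74, 3.81, 3.86 and 3.66 in PCKO, against 4.19, 4.32, 4.80 and 4.37 in WT. All PCKO values lay below all WT values, with WT replicate 3 the highest, and the difference was -0.65 ± 0.13 (adjusted p = 0.00259), or 1.57-fold lower. With spike-in centring it was 0.02 (adjusted p = 0.956), and in slide row 1 alone -0.48 (adjusted p = 0.0535). Nbr1, a related ubiquitin receptor, rose by 0.50 ± 0.18 (adjusted p = 0.0346), a call lost without WT replicate 2 or any of PCKO replicates 1, 2 and 4 (adjusted p = 0.054 to 0.0828).

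Of 15 other receptors 6 were higher and 6 lower (40% each, near the 37.5% and 31.9% of named genes), with a median of 0.21 that became -0.41 over the 7 found in the deposited values. Retreg1, a receptor for autophagy of the endoplasmic reticulum, showed the widest difference of the list, with 1.49, 1.88, 1.37 and 1.22 in PCKO against 4.30, 4.34, 4.74 and 4.39 in WT (-2.95 ± 0.16, adjusted p = 1.16e-06). Bnip3, a receptor of mitochondria known to respond to hypoxia and FoxO, had 6.55, 6.58, 6.55 and 6.62 in PCKO, against 8.40, 8.27 and 8.07 in WT, where the spot of WT replicate 1 was left out as an outlier (-1.67 ± 0.10, adjusted p = 5.81e-06). The dimmer Bnip3 probes were lower too, at -1.37 ± 0.10 (adjusted p = 6.54e-06) and -1.97 ± 0.09 (adjusted p = 5e-07). In the deposited values Bnip3 was at -0.76 (adjusted p = 0.14).

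**Figure D2:**
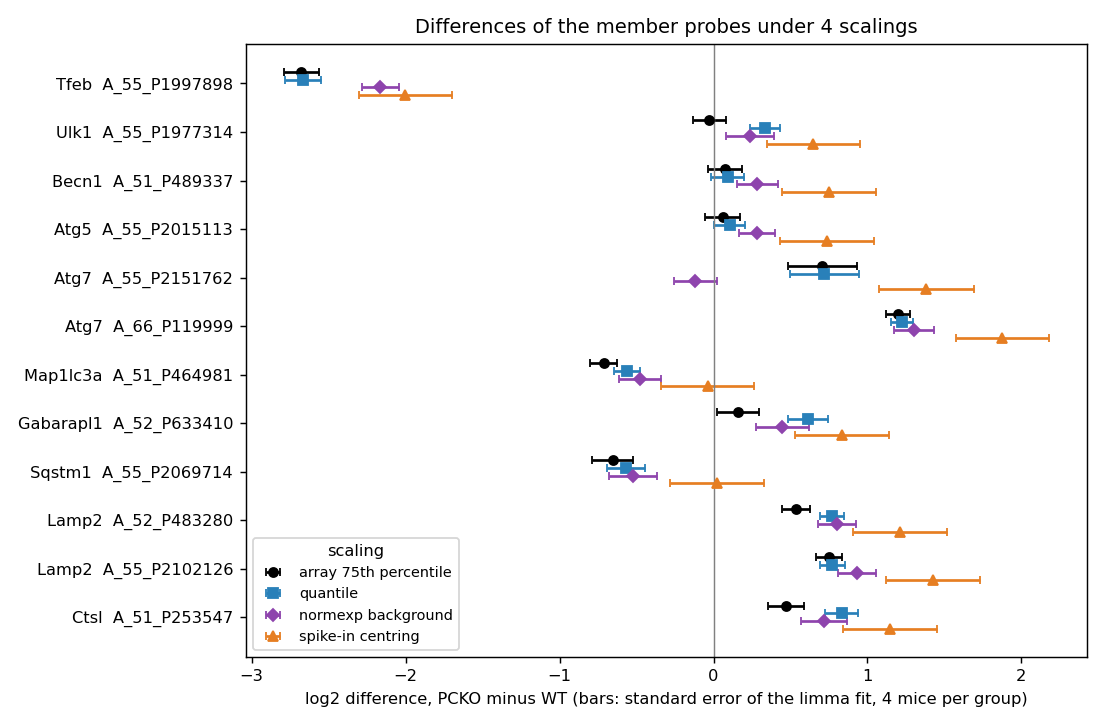
Log2 difference (PCKO minus WT, horizontal axis, bars are the standard error of the limma fit, 4 mice per group) of the 12 probes under the array's 75th percentile, quantile normalization, the normexp background correction and spike-in centring. Tfeb stays between -2.68 and -2.0 and the bright Atg7 probe between 1.20 and 1.88, while Map1lc3a and Sqstm1 lie at -0.04 and 0.02 with spike-in centring.

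At the lysosome itself both chosen genes rose. Lamp2, a membrane protein needed for fusion and for chaperone-mediated autophagy, has 2 probes annotated to different transcripts. At the brighter, for NM_010685, levels were 5.69, 5.54, 5.65 and 5.50 in PCKO, against 4.94, 5.15, 4.99 and 5.16 in WT (0.53 ± 0.09, adjusted p = 0.000837). At the probe for NM_001017959 they were 3.14, 3.1, 2.94 and 3.09 in PCKO, against 2.20, 2.38, 2.28 and 2.41 in WT (0.75 ± 0.08, adjusted p = 8.68e-05). Neither probe had overlapping groups, and the difference between the probes was not tested.

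Ctsl, cathepsin L, a cysteine protease of the lysosome known to be induced in atrophying muscle, had 7.0, 6.76, 6.74 and 6.80 in PCKO, against 6.06, 6.48, 6.44 and 6.43 in WT. The groups did not overlap and WT replicate 1 was the lowest. The difference was 0.47 ± 0.12 (adjusted p = 0.0067), or 1.39-fold higher. Within slide row 1 it was 0.61 (adjusted p = 0.0687) and within row 2 it was 0.33 (adjusted p = 0.0862), with 2 mice per group in each.

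Lysosomal hydrolases of sugars and lipids rose together. Of 29 tested glycosidases, lipases, sulfatases and their activators 18 were higher and 3 lower, 62.1% and 10.3%, against 37.5% and 31.9% of named genes. Their median difference was 0.67, against 0.06 over all named genes. Under the other scalings it lay between 0.47 and 1.34, where that of all named genes lay between 0.02 and 0.73. With spike-in centring the 2 medians were 1.34 and 0.73. Leaving out each mouse in turn gave 18 higher and 1 to 3 lower, against 4457 to 4727 and 3811 to 3950 of the 12739 named genes. At 2-fold or more 10 were higher and none lower, where 11.6% of named genes were higher to that extent. Man2b1, lysosomal alpha-mannosidase, had levels of 4.44, 4.20, 4.51 and 4.54 in PCKO, against 2.64, 2.52, 2.61 and 2.28 in WT (1.91 ± 0.11, adjusted p = 2.09e-06). Glb1, the beta-galactosidase, had 1.0, 0.68, 0.92 and 0.91 in PCKO, against -0.97, -0.73, -0.84 and -1.23 in WT (1.82 ± 0.13, adjusted p = 4.7e-06). The lower 3 were Sgsh, Idua and Psap, and Sgsh had a second probe that was higher (1.06 ± 0.08, against -0.65 ± 0.13 at the brightest), both annotated to 1 transcript. All 3 lower calls were lost with spike-in centring (adjusted p = 0.957 for Sgsh, 0.578 for Idua and 0.554 for Psap), and all 3 with the normexp correction (adjusted p = 0.074, 0.189 and 0.335 in the same order). Quantile normalization ended the calls of Sgsh (-0.27, adjusted p = 0.145) and Psap (-0.34, adjusted p = 0.07), and the deposited values that of Sgsh (-0.21, adjusted p = 0.421). The Psap call (-0.46 ± 0.14) was also lost without PCKO replicate 2 or WT replicate 1 or 2 (adjusted p = 0.0508 to 0.0524). The Idua call (-0.48 ± 0.17) was lost without PCKO replicate 2 (adjusted p = 0.0839) or 4 (adjusted p = 0.0691), and without WT replicate 1 its other probe became the brighter and gave 0.28 (adjusted p = 0.249).

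The V-ATPase is the proton pump that acidifies the lysosome. Of its 16 subunits and accessory proteins 12 were higher and 2 lower (75% and 12.5%, against 37.5% and 31.9% of named genes). Their median was 0.52, and between 0.39 and 1.20 under the other scalings. That of all named genes lay between 0.02 and 0.73 under those scalings, with 0.73 in spike-in centring, where the V-ATPase median was 1.20. Atp6v0c, a subunit of the membrane ring, had 4.88, 4.82, 4.97 and 4.80 in PCKO, against 4.02, 3.81, 3.83 and 3.74 in WT (1.02 ± 0.09, adjusted p = 1.89e-05). Atp6v1f, of the catalytic part, rose by 0.96 ± 0.07 (adjusted p = 7.25e-06). Of 14 genes of autophagosome fusion 9 were higher, 1 was lower and 4 did not pass (64.3% higher and 7.14% lower, median 0.51). Vps39, of the HOPS tethering complex, rose by 1.27 ± 0.11 (adjusted p = 1.49e-05). The lower one was Rab7, the GTPase of late endosomes, at -1.56 ± 0.13 (adjusted p = 1.5e-05).

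**Figure D3:**
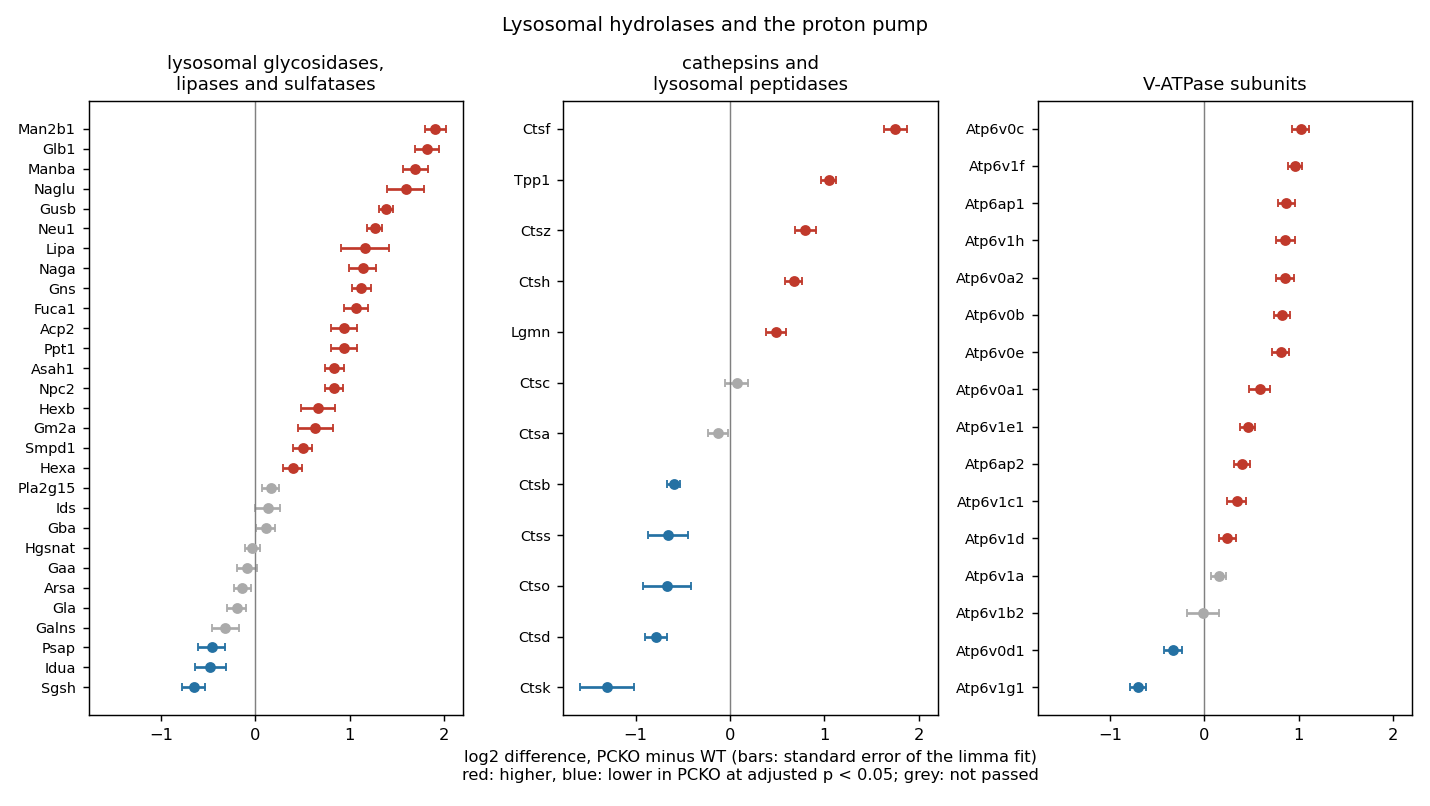
Log2 difference (PCKO minus WT, horizontal axis, bars are the standard error of the limma fit) of every tested gene in 3 lists, red where higher and blue where lower in PCKO at an adjusted p under 0.05. The glycosidase list has 18 red and 3 blue points and the V-ATPase list 12 and 2, while the peptidase list has 5 of each.

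Of 12 cathepsins and other peptidases of the lysosome 5 were higher and 5 lower, shares (41.7% each) near the 37.5% and 31.9% of named genes, with a median of -0.03 that became positive in quantile normalization (0.14), the normexp correction (0.20), spike-in centring (0.65) and the deposited values (0.19). Ctsf, cathepsin F, had levels of 3.40, 3.07, 3.41 and 3.59 in PCKO, against 1.66, 1.74, 1.6 and 1.44 in WT (1.76 ± 0.12, adjusted p = 5.49e-06). Ctsk, cathepsin K, had 0.39, 1.82, 1.39 and 1.34 in PCKO, against 2.46, 2.88, 2.54 and 2.28 in WT (-1.30 ± 0.28, adjusted p = 0.00359), with PCKO replicate 1 the lowest. The abundant proteases Ctsb (-0.59 ± 0.07) and Ctsd (-0.78 ± 0.11) fell too, at adjusted p = 0.000103 and 0.000384. With spike-in centring none of these 3 lower calls remained, and Ctsb stood at 0.08. Among 14 lysosomal membrane proteins 7 were higher and 4 lower (50% and 28.6%, against 37.5% and 31.9% of named genes, median 0.28). Ostm1, a partner of the lysosomal chloride transporter, differed by 1.73 ± 0.09 (adjusted p = 1.16e-06). Lamp1, the close relative of Lamp2, had 8.02, 7.95, 8.00 and 7.96 in PCKO, against 8.68, 8.64, 8.69 and 8.61 in WT (-0.67 ± 0.07, adjusted p = 4.42e-05), so it fell where Lamp2 rose, though it was at 0.00 with spike-in centring (adjusted p = 0.99). Of 6 sorting genes 2 were higher and 1 lower (33.3% and 16.7%). They included M6pr, a mannose 6-phosphate receptor, at 0.46 ± 0.10. Sort1, sortilin, was at -0.43 ± 0.09, which turned to 0.25 with spike-in centring (adjusted p = 0.488).

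**Figure D4:**
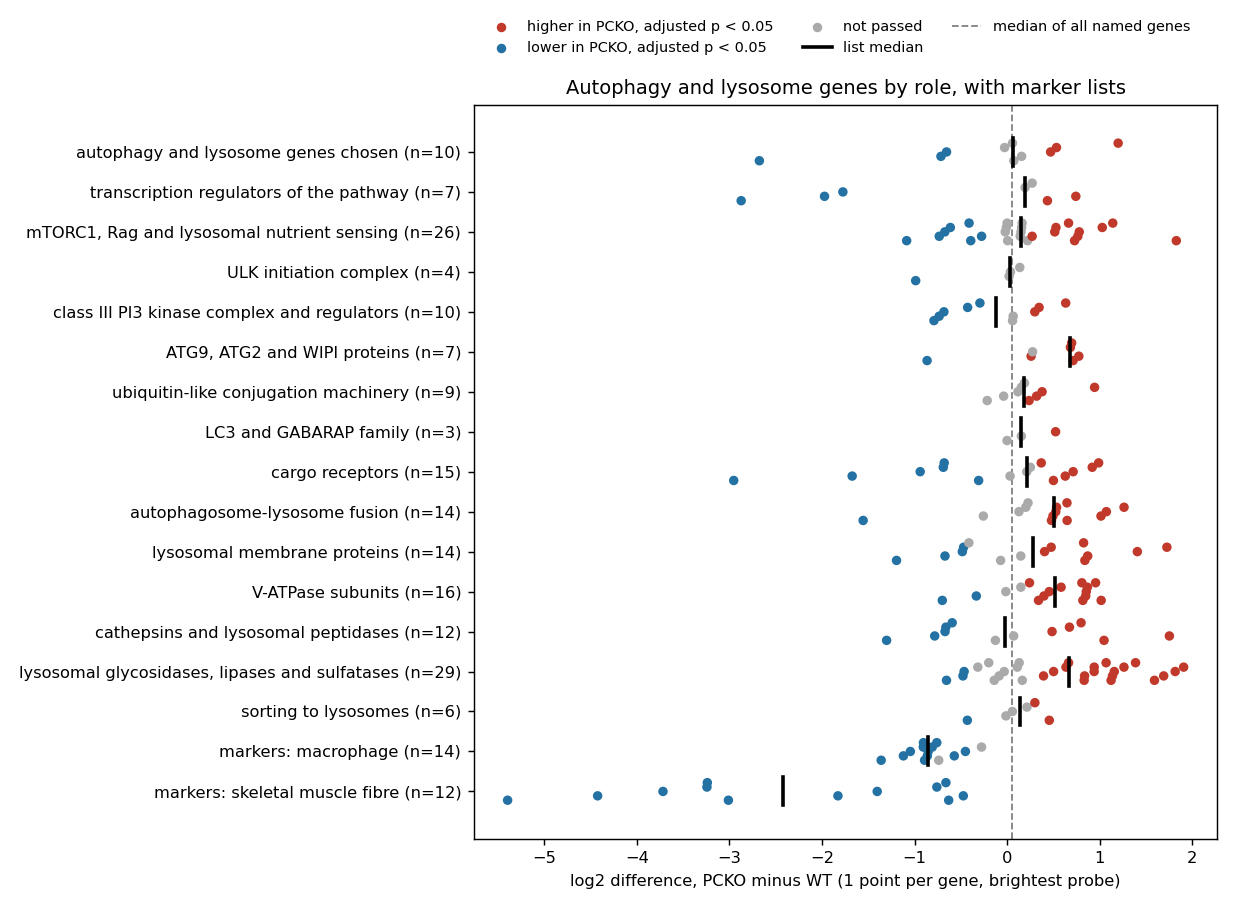
Log2 difference (PCKO minus WT, horizontal axis) of every tested gene by role, 1 point per gene at its brightest probe, with the list median as a black bar and the median of all named genes (0.06) as a dashed line. The 12 fibre markers and all 14 macrophage markers lie left of 0, while medians of the hydrolase, V-ATPase and fusion lists lie at 0.67, 0.52 and 0.51.

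Over all role lists without the 10 chosen genes, 84 of 172 tested genes were higher and 39 lower. These were 48.8% and 22.7% (median 0.24), against 37.5% and 31.9% of named genes. With spike-in centring 120 were higher and 6 lower, and under quantile normalization 97 and 35. The counts over all 12739 named genes moved too. They were 6773 higher and 1198 lower with spike-in centring, and 5401 and 3622 under quantile normalization. Cells other than fibres also carry lysosomes, and fewer cells of a type and less RNA per cell cannot be told apart in whole muscle. Macrophage markers were lower in 12 of 14 tested cases and higher in none (median -0.86). Their summed linear level, relative to the array's 75th percentile, was 20.3 to 35.6 in PCKO and 44.1 to 58.7 in WT, and Cd68 was not measured here. Fibre markers were well above background on every array, and all 12 were lower, with a sum of 2860 to 3400 in PCKO and 8900 to 11100 in WT. Fibroblast markers (7 of 7) and endothelial markers (6 of 6) were lower as well, and of 3 tested neutrophil markers Elane was lower (-0.83 ± 0.19), while S100a8 (0.89 ± 0.73) and S100a9 (0.74 ± 0.72) did not pass and the summed level was 1.51 to 14.3 in PCKO and 1.29 to 3.84 in WT. With spike-in centring 1 of 14 macrophage markers (median -0.18), 1 of 6 endothelial markers (median -0.27), 5 of 7 fibroblast markers and 8 of 12 fibre markers were lower, and 2 of the 3 neutrophil markers were higher. With each probe's own variance in that setting, no macrophage, endothelial or neutrophil marker was called. There 4 of 7 fibroblast and 8 of 12 fibre markers were lower. Under quantile normalization 8 of the 12 fibre markers were lower and 1 was higher. In the deposited values 5 of 6 fibre markers were lower and 1 was higher, where 2306 of 13173 named genes were lower and 3313 higher. Under the main scaling without PCKO replicate 1, the S100a9 difference was -0.01. The part of these shifts in the falls of cathepsins and in the rises of hydrolases was not tested. Both targeted genes were lower, Ep300 by -1.44 ± 0.11 (adjusted p = 9.57e-06) and Crebbp by -0.70 ± 0.11 (adjusted p = 0.000597). Where those probes lie against the deleted exons is not known here, so they do not check the deletion.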

How the data were processed

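RNA of 8 EDL muscles was labelled with Cy3 and hybridised to Agilent mouse arrays on 1 slide, 2 arrays of each group in each of 2 slide rows. The deposited scanner files hold spot intensity values that, per the file headers, came from version 10.7.3.1 of Agilent's Feature Extraction, already background-subtracted and detrended within each array and not scaled between arrays. The deposited series table holds log2 values of 32622 non-control probes, made by steps that the sources here do not describe, and served as an alternative. Detection and outlier flags came from the same deposited files.

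Processed intensity was taken to log2 and the array's 75th percentile subtracted. Control spots and spots marked as non-uniform or population outliers were left out, and spots of a probe averaged. A probe was tested where well above background on at least 4 of 8 arrays (24872 probes). Probe accessions were matched, without versions, to RefSeq genes (GRCm38.p6). Of the probes 26582 had 1 symbol, none had several and 29099 had none. No coordinates of probes are given, since the design is annotated on another build. limma 3.58.1 under R 4.3.3 compared PCKO with WT by lmFit and eBayes, with a two-sided test and no covariate, over all tested probes, with Benjamini-Hochberg adjustment over them. For counts a gene stood by its brightest tested probe. Sgsh and Slc17a5 were among the listed genes with probes called in opposite directions.

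The members, the textbook role lists and the naming rule were all set with earlier results of these data known. The rule took all members and their probes, both targeted genes, the 2 largest called and non-overlapping differences of each role list, all tested partners of ULK1 and relatives of LC3 and GABARAP, and close relatives of the members. Intervals cover 95%. Depth on arrays is signal over background, and their number limits the precision. The labels describe 4 mice per group with shared replicate numbers. Same-numbered deviations from the group means correlated at 0.02 to 0.09 over tested probes, and differently numbered ones at -0.10 to 0.06. Correlations this weak cannot decide whether the numbers pair the mice, and the main fit treated the mice as unpaired. The normexp correction (offset 50) ran on median spot signals, since mean signals are not among the columns. Spike-in centring with the variance of each probe alone, and leaving out mice in the spike-in comparison, were added after seeing the data.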

Additional observations from a re-analysis of the deposited data

Results flagged for a closer look

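Dixon's test at the 95% level flags about 1 in 20 groups of 4 by chance. It was applied to 127 groups of 4 mice, over the chosen genes and the pathway and neutrophil genes named, and marked 12. Tfeb in PCKO replicate 4 was at 0.25, above the other PCKO mice at -0.02 to 0.01 and far below every WT mouse. Ctsl in WT replicate 1 was at 6.06, below the other WT mice at 6.43 to 6.48. Wipi1 in WT replicate 4 was at 2.43, below 2.74 to 2.78 in the others. Atg16l1 was low in replicate 1 of both groups, at 0.70 in PCKO against 0.94 to 0.98 in its group, and at 0.54 in WT against 0.77 to 0.82. In PCKO replicate 2, Gabarap was at 6.58, Cln3 at 2.55 and Ctsd at 6.03, each below the other PCKO mice. Atp6v1f in WT replicate 2 was at 6.70, above the other WT mice at 6.61. Ctsb in WT replicate 3 was at 6.68, below 6.72 in the others. Idua in WT replicate 1 was at 2.42, above the other WT mice at 1.79 to 1.89. S100a8, a neutrophil marker, was at 0.45 in PCKO replicate 1, above the other PCKO mice at -2.64 to -2.13.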

How the results depend on the processing

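In the 25 other settings Tfeb, the bright Atg7 probe and the Lamp2 probe for NM_001017959 kept direction and call wherever listed. Spike-in centring raised Atg5 to 0.73 (adjusted p = 0.0299), Becn1 to 0.75 (0.0265), Gabarapl1 to 0.83 (0.0136) and Ulk1 to 0.65, and took Map1lc3a to -0.039 and Sqstm1 to 0.022, leaving 6 members higher and 1 lower, and 120 pathway genes higher and 6 lower. With each probe's own variance, Map1lc3a stayed at -0.039, Sqstm1 at 0.022 and Ulk1 at 0.65, with 3 members higher and 1 lower and 102 pathway genes higher and 5 lower, and the calls of Atg5 (adjusted p = 0.0835), Becn1 (0.0645) and Gabarapl1 (0.0635) were lost. Quantile normalization called 5 members higher, with Gabarapl1 at 0.61 and Ulk1 at 0.33. The normexp correction also called 5, with Atg5 at 0.28, Gabarapl1 at 0.45, Ulk1 at 0.24 and the dim Atg7 probe at -0.12. Of the 12739 named genes, 6773 were higher and 1198 lower with spike-in centring, and 5950 and 958 with each probe's own variance. Quantile normalization gave 5401 and 3622 of them, and the normexp correction 4635 and 3584. In the deposited values, which list 6 of the 10 genes, Ulk1 was 0.35 and the dim Atg7 probe 0.24. Of the 111 pathway genes found there 58 were higher and 19 lower, against 3313 and 2306 of 13173 named genes. Without the filter on dim probes the dim Atg7 probe stayed at 0.71 (adjusted p = 0.0616). Slide row 1 alone gave Ctsl 0.61, Sqstm1 -0.48 and Ulk1 0.051 without a call, with 55 pathway genes higher and 23 lower. Slide row 2 alone gave the dim Atg7 probe 0.35, Becn1 -0.08, Ctsl 0.33 and the brighter Lamp2 probe 0.50 (adjusted p = 0.0518), with 1 member higher and 22 pathway genes lower. In each row alone the calls of Mitf, M6pr and Sort1 were lost as well. Of all named genes 3158 were higher and 2814 lower in row 1 alone, and 3117 and 2825 in row 2 alone. Each row alone has 2 mice per group. Apart from these smaller groups and shorter lists, the cause of these changes was not tested.

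Leaving out each mouse moved Atg5 between -0.0043 and 0.16, Ulk1 between -0.11 and 0.028 (above 0 without PCKO replicate 2 at 0.001, WT replicate 2 at 0.009 or WT replicate 3 at 0.028), the dim Atg7 probe between 0.54 and 0.86 (its call lost without PCKO replicate 4 or WT replicate 2) and the 75th percentile against the spike-ins between 0.54 and 0.81, with the other member calls retained, 3 higher and 3 lower each time. Of the 12739 named genes, 4457 to 4727 were higher and 3811 to 3950 lower when a mouse was left out. The replicate block changed no member call, with 3 members higher and 3 lower, and 82 pathway genes higher and 38 lower. This block called 4608 of the named genes higher and 4031 lower. Whether its replicate numbers pair the mice is not known here. Dim probes may limit the precision, which was not tested. The SD of the dim Atg7 probe was 0.49 in WT and 0.11 in PCKO, against 0.09 and 0.05 at the bright probe.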
